A study of Rattus norvegicus with 48 samples.

Results

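The thick ascending limb of the loop of Henle and the distal tubule reabsorb much of the filtered salt, calcium and magnesium, and 8 genes that mark these segments were examined in rat kidney: Slc12a1, Slc12a3, Egf, Bsnd, Casr, Kcnj1, Cldn16 and Calb1. All probes with 1 of these symbols in the array annotation were taken, which gave 7 probes, 1 for each of 7 genes, of 22226 probes for 13278 named genes on the array. Slc12a1, which encodes the furosemide-sensitive cotransporter NKCC2, had no probe under its symbol or gene ID and was not analysed here.

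RNA from the renal cortex and the renal medulla of male rats was hybridised to Illumina RatRef-12 arrays after 28 days in 4 diet groups with 6 arrays per tissue, 48 arrays in all. Control rats ate regular chow, HLP rats ate chow with 5% hydroxy-L-proline, a precursor of oxalate, Apocynin rats drank water with apocynin (4 mmol in the labels), an inhibitor of NADPH oxidase, and HLP+Apocynin rats received both. The labels name the strain as Wistar and the age as 28 days, whereas the methods of the study name Sprague-Dawley rats that were adult when the 28 days began. The methods describe RNA from each rat for Control, HLP and HLP+Apocynin and do not describe the Apocynin group, and no label says that its arrays came from different rats, so that p-values cover the spread between these arrays only.

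In the thick ascending limb, NKCC2 carries sodium, potassium and chloride into the cell, ROMK (Kcnj1) recycles the potassium to the lumen, and chloride leaves through channels whose subunit is barttin (Bsnd). The positive lumen that results drives calcium and magnesium through tight junctions that contain claudin-16 (Cldn16), a path held in check by the calcium-sensing receptor (Casr). In the distal convoluted tubule the thiazide-sensitive cotransporter NCC (Slc12a3) takes up sodium and chloride, and calbindin-D28k (Calb1) buffers calcium in the late distal convoluted and connecting tubule. The precursor of epidermal growth factor (Egf) is made in the thick ascending limb and the early distal convoluted tubule and is shed into urine.

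Some facts of the whole series bear on every value. Between 48.2% and 52.9% of probes were detected per array, and the median raw signal was 36.4 to 50.6 in cortex and 49.3 to 75.1 in medulla. The 2 deposited tables, raw signals and log2 values, held the same arrays under different sample names for 40 of 48 arrays, and for 24 the other name was that of another diet group, never of the other tissue. Names of the raw signal table were used, and diet results that changed with those of the log2 table, called the alternative sample names, are given with both. By their overall profile 3 arrays stood nearer the other tissue than their own: Control cortex 4, Control medulla 4 and Apocynin medulla 4. The correlation of this profile with the cortex mean was 0.28, 0.82, 0.04, -0.67, 0.45 and 0.78 in Control cortex 1 to 6. It was 0.70 to 0.79 in HLP, 0.50 to 0.83 in Apocynin and 0.18 to 0.77 in HLP+Apocynin cortex arrays. HLP+Apocynin medulla 5 stood between the tissues (-0.07 with cortex, 0.02 with medulla). The part of this unevenness in the diet differences was not tested. Both apocynin groups stand in a separate run of 12 columns per tissue in the raw signal table, so that apocynin and position in the table cannot be told apart. Levels below are log2 signals after background correction and quantile normalization, and signals of different probes are not comparable.

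All 7 genes were detected in every array except Casr, which was detected in 24 of 24 cortex arrays and 22 of 24 medulla arrays and stood close to background. Its raw signals were 41.6 to 61.5 in cortex and 59.3 to 99.9 in medulla. Raw signals of Calb1 ran from 120 to 12000 and those of Slc12a3 from 116 to 2200 in medulla.

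**Figure D1:**
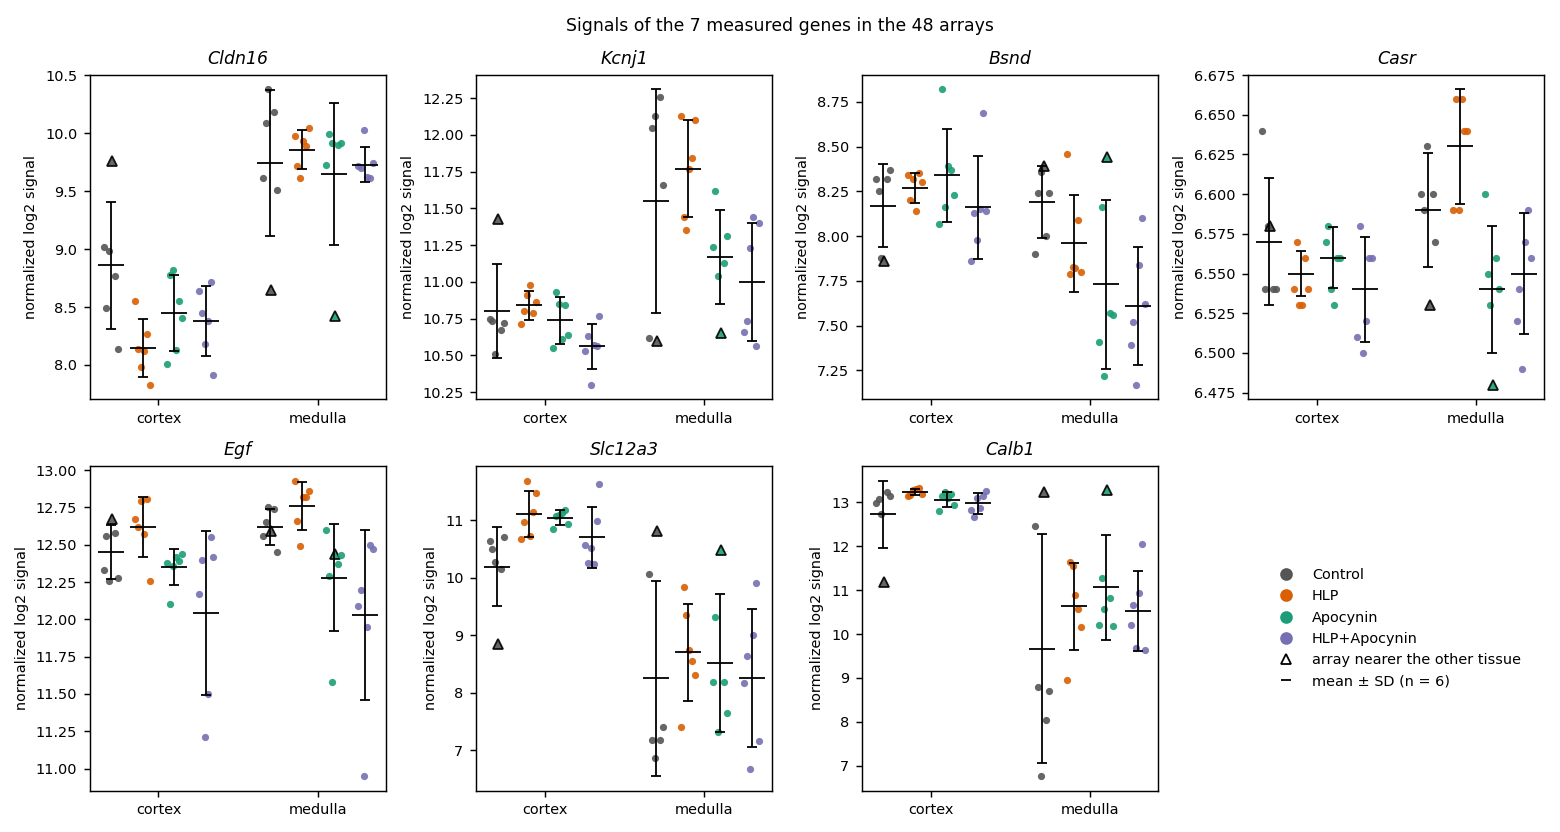
Normalized log2 signal of each measured gene (y axes, one panel per gene) in the 24 cortex and 24 medulla arrays, coloured by diet group, with mean ± SD over 6 arrays; triangles mark the 3 arrays nearer the other tissue. Apart from Control cortex 4, the cortex arrays lie at 12.66 to 13.33 for Calb1 and at 10.16 to 11.69 for Slc12a3. In medulla these genes spread more widely, from 6.77 to 13.27 and from 6.68 to 10.81. The triangles lie on the side of the other tissue for Calb1, Slc12a3, Cldn16 and Kcnj1.

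The first comparison asked where along the kidney the genes were found. Over the 4 diet groups, the distal tubule genes Slc12a3 and Calb1 were higher in cortex and the thick ascending limb genes Cldn16 and Kcnj1 were higher in medulla. Slc12a3 had a cortex mean of 10.76 and a medulla mean of 8.43, a difference of 2.33 ± 0.27 (SE, log2), or 5.02-fold (adjusted p = 1.38e-09, limma with Benjamini-Hochberg adjustment over 12616 probes). Calb1 had means of 12.99 and 10.47, a difference of 2.52 ± 0.32 and 5.75-fold (adjusted p = 9.44e-09). The ranges of both genes overlapped between the tissues and did not without the 3 arrays nearer the other tissue, where the lowest cortex and highest medulla arrays were at 12.66 and 12.45 for Calb1 and at 10.16 and 10.07 for Slc12a3.

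Cldn16 had a mean of 8.46 in cortex and 9.75 in medulla, 2.44-fold lower in cortex (-1.28 ± 0.12, adjusted p = 1.04e-11). Without the 3 arrays the difference was -1.45, with cortex arrays at 7.83 to 9.02 and medulla arrays at 9.51 to 10.38, and no overlap. Kcnj1 was 1.56-fold lower in cortex (10.73 against 11.37, difference -0.64 ± 0.10, adjusted p = 1.35e-06), with ranges of 10.30 to 11.43 and 10.56 to 12.26 that overlapped. The directions and calls of these 4 genes over the diet groups held under each alternative run for this comparison and without each single array.

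Bsnd and Egf depended on how the tissues were scaled to each other. Bsnd was 1.29-fold higher in cortex after quantile normalization over all arrays (8.24 against 7.87, 0.37 ± 0.081, adjusted p = 0.00016), whereas the difference was 0.04 with median scaling (adjusted p = 0.724) and -0.08 with quantile normalization within each tissue (adjusted p = 0.339). Egf had means of 12.36 and 12.42 (difference -0.06, adjusted p = 0.588), and was lower in cortex by 0.32 with median scaling (adjusted p = 0.00375), a scaling that moved the median of all probes by only -0.072. Casr was lower in cortex by 0.02 (adjusted p = 0.022), a difference of 1.02-fold in a probe near background.

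In total 6 of the 7 genes passed the test between the tissues, 3 higher and 3 lower in cortex, beside 61.2% of all 12616 probes tested, 32.1% higher and 29.1% lower. The median difference of the 7 genes was -0.02 against 0 over all probes. With median scaling 20.5% of the probes called were higher in cortex, in place of 4052 of 7723. Within single diet groups, Slc12a3, Calb1 and Cldn16 passed in each of the 4 groups, Slc12a3 with 1.93 in Control to 2.52 in Apocynin, and Kcnj1 passed in Control (-0.75) and HLP (-0.93) and not in Apocynin (-0.43, adjusted p = 0.109) or HLP+Apocynin (-0.44, adjusted p = 0.118). Kcnj1 in Apocynin passed without Apocynin medulla 4 (adjusted p = 0.0478), and the change of its tissue difference with apocynin was 0.41 ± 0.21 (adjusted p = 0.159). The methods take cortex and medulla from each rat, while no label ties an array number to a rat, and with diet group and number as a block Kcnj1 had adjusted p of 0.0803 in Apocynin and 0.0855 in HLP+Apocynin. With the t-test of the methods none of the 4 calls in Control remained, with adjusted p of 0.0766 to 0.129. Bsnd passed in Apocynin (0.61) and HLP+Apocynin (0.55), in the latter not without HLP+Apocynin cortex 5 (adjusted p = 0.0504), and Casr in HLP (-0.09). The shares of all probes called in these groups were 29.9% in Control, 44.9% in HLP, 31.9% in Apocynin and 23.1% in HLP+Apocynin.

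**Figure D2:**
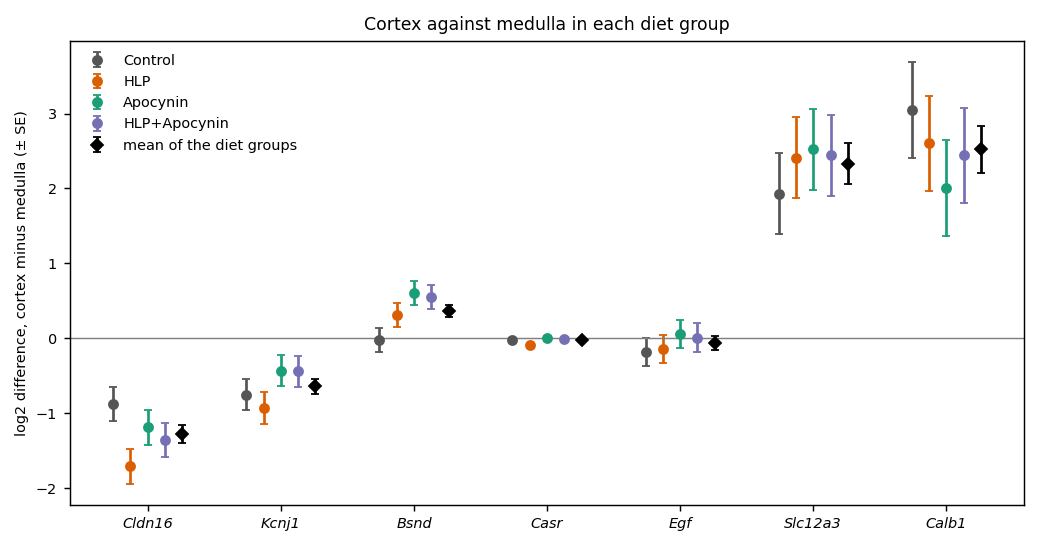
Log2 difference between cortex and medulla (y axis, ± SE) for each gene in each diet group (circles) and over the groups (diamonds). Slc12a3 and Calb1 lie above 0 in all 4 groups, Cldn16 and Kcnj1 below, and Bsnd, Casr and Egf lie within 1 of 0.

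Other genes of the same segments were divided in the same comparison. Of 21 other thick ascending limb and macula densa genes listed, 12 were tested, of which 10 were lower in cortex, 1 was higher and the median difference was -0.54. Ppp1r1b, which encodes the phosphatase inhibitor DARPP-32, differed by -2.71 and Cldn19, the partner of claudin-16 in the tight junction, by -1.06 (adjusted p = 2.6e-10). Irx3 and Irx1, homeobox transcription factors, differed by -0.45 and -0.86. The single gene of the list that was higher in cortex, named after its value was seen, was Ptgs2 (0.34 ± 0.092, adjusted p = 0.00158). It encodes a cyclooxygenase and was listed for the macula densa, and the cause of its difference was not tested.

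Of 17 other distal convoluted and connecting tubule genes listed, 11 were tested, with 7 higher and 1 lower in cortex and a median of 0.11. The calcium channel gene Trpv5 (0.14) and the sodium-calcium exchanger gene Slc8a1 (0.06) passed with small differences close to background, detected in 22 and 21 of 24 cortex arrays. Kcnj16, a basolateral potassium channel gene, was higher by 0.91 ± 0.098 and Hsd11b2, which inactivates glucocorticoid in aldosterone-sensitive cells, by 0.67 ± 0.095. The single gene that was lower, named after its value was seen, was the transcription factor gene Tfap2b (-0.47). Of the WNK-SPAK kinase pathway, which controls phosphorylation of NCC and NKCC2, 8 of 10 genes were tested, 4 were higher in cortex and 2 lower. Wnk1 was higher by 1.40 and Oxsr1 by 0.39, Wnk4 by 0.50, and Stk39 (SPAK) was lower (-0.45). That these differences reflect fewer cells of a segment or less RNA per cell cannot be told apart in whole tissue.

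From one medulla array to another, Slc12a3 and Calb1 moved against Kcnj1 and Cldn16. The spread within groups was 1.6 (SD, log2) for Calb1 and 1.3 for Slc12a3 in medulla, which ranked as number 9 and 32 of 11972 probes from the widest, where the median probe had 0.11. Among Control medulla arrays alone, Calb1 ran from 6.77 in array 3 to 12.45 in array 1 and 13.24 in array 4, with the other 3 arrays at 8.05 to 8.80. Slc12a3 was at 6.87 in array 3, 10.07 in array 1 and 10.81 in array 4 of the same group. Array 1 of that group had Kcnj1 at 10.62 and array 4 at 10.60, the lowest of the 6, whereas arrays 2, 3 and 5 stood at 12.05 to 12.26.

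Deviations from the group means were correlated over the 24 arrays of each tissue, with 100000 permutations within groups and Benjamini-Hochberg adjustment over 182 pairs of genes or of a gene and a marker score. In medulla 6 of 21 gene pairs passed, all 6 among Slc12a3, Calb1, Kcnj1 and Cldn16, and no pair with Bsnd, Egf or Casr did, with r of 0.39, 0.22 and -0.08 for Slc12a3 and of 0.21, 0.01 and -0.25 for Calb1. The lack of calls for Bsnd, Egf and Casr depended on the processing. With median scaling Egf passed with Bsnd (r = 0.58, adjusted p = 0.00778) and Casr with Cldn16 (r = 0.62, adjusted p = 0.0322). Egf passed with Casr without the arrays nearer cortex (r = 0.63, adjusted p = 0.0265). Slc12a3 and Calb1 rose and fell together (Pearson r = 0.93, p = 1e-05, the smallest that the permutations can give, adjusted p = 0.000364, Spearman rho = 0.92, p = 1e-05), with r = 0.90 without the 2 arrays farthest from the median of Slc12a3. Kcnj1 and Cldn16 did so too (r = 0.72, p = 0.00029, adjusted p = 0.0031, rho = 0.76, p = 0.00013, and r = 0.67 without the 2 farthest arrays). Within the 12 arrays without and the 12 with apocynin r was 0.97 and 0.93 for the first pair and 0.84 and 0.55 for the second.

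Between the pairs the sign was negative. Calb1 had r = -0.85 with Kcnj1 (permutation p = 0.00011, adjusted p = 0.00143, rho = -0.76, p = 0.00054) and r = -0.79 with Cldn16 (permutation p = 0.00011, adjusted p = 0.00143, rho = -0.68, p = 0.00111). Without the 2 arrays farthest from the median of the first gene, the values were -0.75 and -0.68. Slc12a3 had r = -0.77 with Kcnj1 (permutation p = 0.00075, adjusted p = 0.0062, rho = -0.68, p = 0.00201) and r = -0.76 with Cldn16 (permutation p = 0.00011, adjusted p = 0.00143, rho = -0.73, p = 8e-05), and -0.67 and -0.62 without the 2 farthest arrays. Within the arrays without and with apocynin the 4 negative pairs had r of -0.95 and -0.57, -0.84 and -0.79, -0.96 and -0.45, and -0.82 and -0.68 in that order. Without the 2 medulla arrays nearer cortex all 6 pairs passed again, with r of 0.89 and 0.67 for the positive pairs and -0.78 to -0.60 for the negative ones.

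Markers of cortex moved with these genes in medulla. The mean of 7 proximal tubule genes, which medulla arrays held at 8.88 to 11.97 and cortex arrays at 10.86 to 12.21, correlated with Slc12a3 at r = 0.93 (permutation p = 1e-05, rho = 0.96), with Calb1 at 0.89 (permutation p = 1e-05, rho = 0.89), with Kcnj1 at -0.76 (permutation p = 0.00034, rho = -0.73) and with Cldn16 at -0.79 (permutation p = 2e-05, rho = -0.81). Without the 2 farthest arrays these were 0.93, 0.94, -0.76 and -0.76, and without the arrays nearer cortex 0.90, 0.83, -0.65 and -0.75. The mean of 3 podocyte genes, cells found in glomeruli and so in cortex only, correlated with Slc12a3 at 0.96 and with Calb1 at 0.91 (permutation p = 1e-05 for both), and ranged from 7.49 to 9.10 in medulla against 8.52 to 9.38 in cortex. The mean of 3 inner medulla genes had r = -0.87 with Slc12a3, -0.83 with Calb1, 0.81 with Kcnj1 and 0.74 with Cldn16. That of 7 principal cell genes had r = 0.82 with Kcnj1 (permutation p = 0.00029, rho = 0.77), -0.82 with Calb1 and -0.75 with Slc12a3. With Cldn16 it had r = 0.59, which did not pass (permutation p = 0.0134, adjusted p = 0.0595). The part of these markers in the differences between medulla arrays was not tested.

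**Figure D3:**
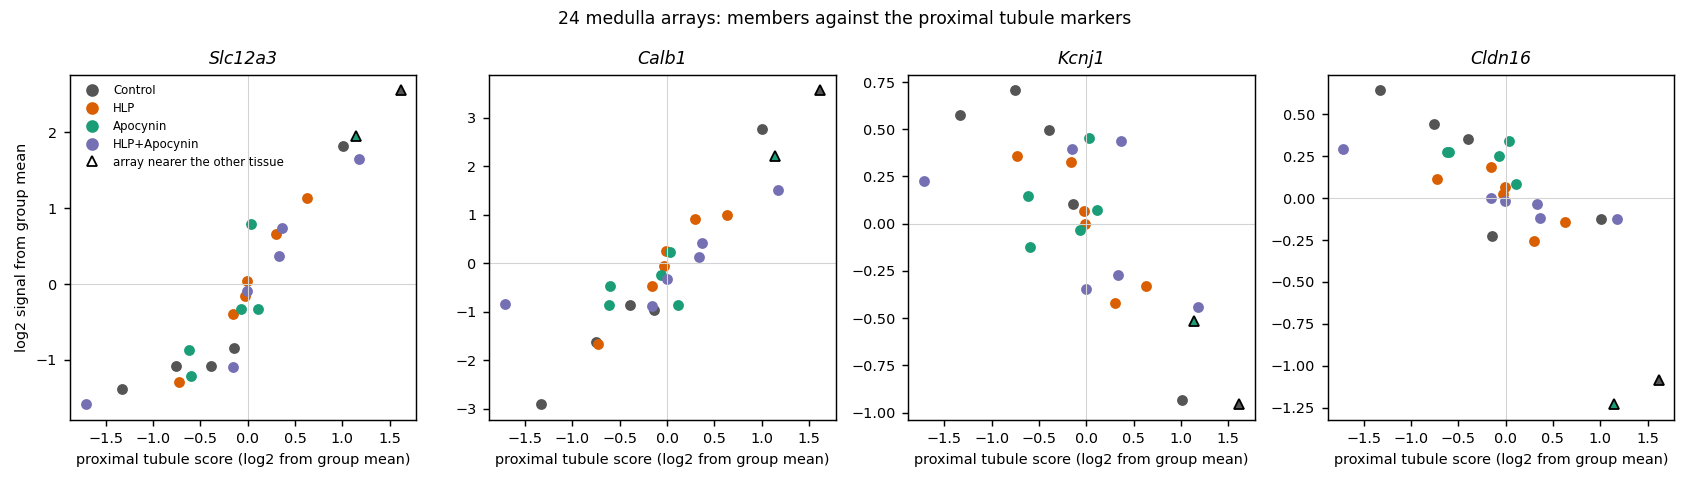
Deviation of each gene from its group mean (y axes, log2) against the deviation of the mean of 7 proximal tubule markers (x axes, log2) in the 24 medulla arrays, coloured by diet group, with triangles for the 2 arrays nearer cortex. Slc12a3 and Calb1 rise along the marker score (r = 0.93 and 0.89) and Kcnj1 and Cldn16 fall (r = -0.76 and -0.79).

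In cortex 3 of 21 pairs passed. Slc12a3 and Calb1 had r = 0.79 (permutation p = 0.00084, adjusted p = 0.00665, rho = 0.67, p = 0.00107), 0.58 without the 2 farthest arrays and 0.55 without Control cortex 4 (adjusted p = 0.0488). Bsnd and Calb1 had r = 0.48 (permutation p = 0.0073, adjusted p = 0.0429, rho = 0.63, p = 0.00509) and Slc12a3 and Cldn16 r = -0.62 (permutation p = 0.00966, adjusted p = 0.0476, rho = -0.37, p = 0.085). Neither of the latter pairs passed without Control cortex 4 (r = 0.47, adjusted p = 0.193, and r = -0.37, adjusted p = 0.222), and the third was -0.31 without the 2 farthest arrays.

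The probes most like each gene over the 48 arrays, among 9068 tested probes with a symbol, were described by Pearson r only. For Slc12a3 they were Lgmn, Nphs1 and Plcb1 (r = 0.97 each) and for Calb1 Epb41l3, Slc7a7 and Slc5a2 (0.98, 0.98 and 0.97). For Cldn16 they were Prkcq, Cldn3 and Slc23a3 (0.97, 0.95 and 0.95) and for Kcnj1 Efhd1, Pcsk6 and Ugt8 (0.93 each). Egf had Fam81a, Mpc1 and Cbs (0.83, 0.81 and 0.81), Bsnd had Hsd11b2, Tmprss2 and Pfkm (0.85, 0.83 and 0.83), and Casr had Ctf1, Ghr and Atg5 (0.76, 0.76 and 0.75). After removal of the group means, the 3 most like Slc12a3 were Slc7a9, Slc5a2, the glucose transporter of the early proximal tubule, and Nphs1, the podocyte gene of nephrin (0.93 each), of which Nphs1 was also among its 3 over the 48 arrays.

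Start regions of the 3 genes of the opposed pairs that have an entry in the RefSeq promoter table (GRCr8) are shown here, 250 bases before to 50 after the start of the transcript, 5′ to 3′, in lower case with motif matches in capitals. Calb1 has no entry. Kcnj1 has 2 entries for different start sites, of which the upstream one is shown.
Slc12a3, chr19:10675001-10675300, minus strand: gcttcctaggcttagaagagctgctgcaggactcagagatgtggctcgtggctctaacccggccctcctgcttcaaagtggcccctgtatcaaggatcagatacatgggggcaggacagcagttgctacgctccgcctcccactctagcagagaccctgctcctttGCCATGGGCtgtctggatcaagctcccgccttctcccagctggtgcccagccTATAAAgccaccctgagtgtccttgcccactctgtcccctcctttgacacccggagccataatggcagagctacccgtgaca
Kcnj1, chr8:39037742-39038041, plus strand: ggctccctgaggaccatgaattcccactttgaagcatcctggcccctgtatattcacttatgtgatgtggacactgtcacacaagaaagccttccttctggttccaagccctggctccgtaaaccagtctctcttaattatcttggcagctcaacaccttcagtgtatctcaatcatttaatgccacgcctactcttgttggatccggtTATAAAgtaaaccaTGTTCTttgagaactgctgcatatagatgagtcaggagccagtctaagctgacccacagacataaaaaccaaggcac
Cldn16, chr11:87814347-87814646, minus strand: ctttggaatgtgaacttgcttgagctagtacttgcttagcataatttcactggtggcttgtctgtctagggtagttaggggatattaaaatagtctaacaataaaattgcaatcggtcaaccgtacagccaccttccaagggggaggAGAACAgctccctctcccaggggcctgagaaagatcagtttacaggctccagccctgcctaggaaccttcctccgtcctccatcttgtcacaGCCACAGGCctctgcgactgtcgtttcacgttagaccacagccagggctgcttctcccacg
Both strands were searched for the TATA box TATAAA, the HNF1 half-site GTTAAT, the ERR half-site AAGGTCA, the AP-2 site GCCNNNGGC, the steroid receptor half-site AGAACA and the CCAAT box, and no matches overlapped. Slc12a3 held TATAAA at position -32 from its start and GCCNNNGGC at -84. Kcnj1 held TATAAA at -41 and the reverse complement of AGAACA at -27, and Cldn16 held AGAACA at position -103 and GCCNNNGGC at position -11 from its start. Of 33469 promoters of 300 bases, 14.2% held TATAAA, 15.1% GCCNNNGGC and 20.7% AGAACA on either strand. The other start site of Kcnj1 held AGAACA and CCAAT matches and no TATAAA, and a match is a description of the letters only.

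The comparison of HLP with control rats asked whether the oxalate precursor changed the genes. In cortex none of the 7 genes passed the test with limma, beside 2.46% of 12268 probes, although 3 had an unadjusted p under 0.05 (21.5% of all probes), and none passed with the t-test of the methods after adjustment. The median difference of the 7 genes was 0.11, against 0 over all probes. Slc12a3 had a lowest, median and highest level of 8.84, 10.39 and 10.70 in Control and 10.68, 11.06 and 11.69 in HLP, and 6 of 6 HLP arrays stood above the control mean, with ranges that overlapped by the lowest HLP array alone. The difference was 0.93 ± 0.26, or 1.90-fold (adjusted p = 0.0541). It was 0.66 without Control cortex 4 (adjusted p = 0.0992) and -0.23 with the alternative sample names (adjusted p = 0.929).

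Cldn16 had levels of 8.14, 8.88 and 9.76 in Control and 7.83, 8.13 and 8.55 in HLP, with 6 of 6 HLP arrays below the control mean and overlapping ranges. The difference was -0.71 ± 0.20 (adjusted p = 0.0593), -0.53 without Control cortex 4 and -0.18 with the alternative sample names. Both genes passed when Control cortex 2, Control cortex 6 or HLP cortex 1 was left out, with adjusted p down to 0.0264 for Slc12a3 and 0.0118 for Cldn16. Proximal straight tubule markers, which sit beside the thick ascending limb in the outer stripe, were lower in HLP as Cldn16 was. Their score was -0.17 to 1.24 in Control and -0.33 to 0.06 in HLP, with 3 of the 4 genes lower and 1 higher. The other groups stood below Control too, at -0.62 to 0.50 in Apocynin and -0.55 to 0.01 in HLP+Apocynin, with 4 of 4 genes lower in each. The median differences from control were -0.85 in HLP, -0.86 in Apocynin and -0.79 in HLP+Apocynin, so that the shift was not particular to HLP. This score correlated with Cldn16 in cortex (r = 0.76, permutation p = 0.00033, adjusted p = 0.00326, rho = 0.68). With Slc12a3, which was higher in HLP, it had r = -0.52 (permutation p = 0.0185, adjusted p = 0.0735). The part of this score in the differences of both genes was not tested.

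Calb1 stood at 11.19, 13.02 and 13.22 in Control and 13.13, 13.23 and 13.33 in HLP cortex (0.51 ± 0.22, adjusted p = 0.175). Egf, Bsnd, Casr and Kcnj1 differed by 0.17 or less in size, with adjusted p of 0.598 for Egf. Among the other genes of the segments, Ppp1r1b fell by 1.76 ± 0.46 (adjusted p = 0.0451), the 1 thick ascending limb gene of 12 that passed, and Slc8a1 (0.06) and Trpv5 (0.09) rose, 2 of 11 distal tubule genes. Of all probes, 0 were called when Control cortex 1, 3 or 4 or HLP cortex 3, 4 or 6 was left out, which lost these 3 calls, and 2 were called with the alternative sample names. None of 8 WNK-SPAK genes passed with limma, and their median was 0.20.

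In medulla no probe of 11972 passed between HLP and control with limma (percent called 0), none of the 7 genes had an unadjusted p under 0.05 (6.62% of all probes), the t-test of the methods called no probe, and 6 of 7 had a positive difference, median 0.14. The largest was Calb1 (0.96 ± 0.85), from levels of 6.77, 8.75 and 13.24 in Control and 8.96, 10.73 and 11.63 in HLP. Egf was at 12.45, 12.62 and 12.75 in Control and 12.49, 12.82 and 12.93 in HLP (0.14 ± 0.19, adjusted p = 0.999). The HLP effect did not pass a test of its difference between cortex and medulla for any of the 7 genes, nor for any of 12616 probes (percent called 0), and 2 genes had an unadjusted p under 0.05 (7.16% of all probes), Casr (-0.07) and Cldn16 (-0.84 ± 0.33, adjusted p = 0.546). For HLP+Apocynin against control the difference between the tissues passed for 9.96% of probes and none of the 7 genes with limma, and 1 had an unadjusted p under 0.05 (22.7% of all probes), Bsnd (0.57, adjusted p = 0.111). The HLP difference for Cldn16 was 0.10 with the alternative sample names.

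Apocynin alone against control in cortex changed 1 of the 7 genes, Slc12a3, beside 16.8% of 12268 probes. Slc12a3 was at 10.85, 11.08 and 11.18 in Apocynin against 8.84, 10.39 and 10.70 in Control, and the groups did not overlap. The difference of 0.86 ± 0.26 was 1.81-fold (adjusted p = 0.0254), and without Control cortex 4 it was 0.59 (adjusted p = 0.0581) and with median scaling 0.75 (adjusted p = 0.0712). It was 0.10 with the alternative sample names (adjusted p = 0.875). Proximal straight tubule markers were lower than in control here as well (median -0.86, 4 of 4 genes lower, 2 past the test), and their part in the difference of Slc12a3 was not tested. Wnk4, the kinase that regulates NCC, rose by 0.45 ± 0.12 in the same comparison (adjusted p = 0.0139), 1 of 8 genes of its pathway. Among 12 other thick ascending limb genes 3 fell, Irx3 (-0.22), Ppp1r1a, which encodes a phosphatase inhibitor (-0.41 ± 0.13, adjusted p = 0.0281), and Umod, which encodes uromodulin (-0.23 ± 0.074, adjusted p = 0.0327), and the vitamin D receptor gene Vdr rose by 0.17, 1 of 11 distal tubule genes. In medulla none of the 7 genes passed with limma, beside 7.13% of 11972 probes, and Bsnd (-0.46) and Casr (-0.05) had an unadjusted p under 0.05 (21.3% of all probes). Bsnd passed without Apocynin medulla 4 (adjusted p = 0.038), and the t-test of the methods called none.

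HLP+Apocynin against control changed none of the 7 genes with limma, beside 16.1% of probes in cortex and 7.35% in medulla, and in cortex 3 and in medulla 2 had an unadjusted p under 0.05 (30.3% and 24.8% of all probes). In medulla Egf was lower by 0.59 ± 0.19 (adjusted p = 0.0615) and Bsnd by 0.58 ± 0.18 (adjusted p = 0.0571), with 6 of 6 arrays below the control mean for both. Both passed with median scaling, Egf also without HLP+Apocynin medulla 5 or 6 (lowest adjusted p = 0.0378) and Bsnd without HLP+Apocynin medulla 4 or 5 (lowest adjusted p = 0.0323). In cortex Egf (-0.40), Kcnj1 (-0.24) and Cldn16 (-0.48) were lower, where Egf passed without HLP+Apocynin cortex 5 (adjusted p = 0.0408) and Cldn16 without Control cortex 6 (adjusted p = 0.0319), and the t-test of the methods called none in either tissue. In cortex 4 of 12 other thick ascending limb genes fell, Ppp1r1a (-0.55 ± 0.13), Umod (-0.31), Irx3 (-0.23) and Irx1 (-0.28), with a median of -0.22, and Vdr (0.11) and Trpv5 (0.07) rose. Sgk1, the kinase induced by aldosterone, rose in medulla by 0.86 ± 0.22 (adjusted p = 0.0184).

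Egf passed the test in 4 comparisons between arrays with and without apocynin, lower with apocynin in each. These 4 were HLP+Apocynin against HLP and all apocynin arrays against all others, each in both tissues, and the second kind contains the arrays of the first. Apocynin alone against control did not pass for Egf in cortex (-0.10, adjusted p = 0.748) or medulla (-0.34, adjusted p = 0.33). In cortex Egf stood at 12.26, 12.64 and 12.81 in HLP and 11.21, 12.28 and 12.55 in HLP+Apocynin, with 6 of 6 arrays of the second group below the mean of the first and overlapping ranges. The low end was 2 arrays, HLP+Apocynin cortex 3 at 11.21 and 4 at 11.50, and the others stood at 12.17 to 12.55. The difference was -0.58 ± 0.17, or 1.49-fold (adjusted p = 0.0192), and Egf was the 1 gene of 7 that passed, beside 18.4% of probes. Without HLP+Apocynin cortex 4 it did not pass (adjusted p = 0.0535), and without replicate 3 the difference was -0.41 (adjusted p = 0.048). With the alternative sample names it was -0.28 (adjusted p = 0.369), with the log2 values of the authors -0.60 (adjusted p = 0.0691), and with the t-test of the methods the adjusted p was 0.157. Kcnj1 (-0.28, adjusted p = 0.0799) passed with that t-test (adjusted p = 0.0387) and without HLP+Apocynin cortex 6 (adjusted p = 0.0451). The HLP+Apocynin and Apocynin groups did not differ in any of the 7 genes, nor in any of 12268 probes in cortex or 11972 in medulla with limma (percent called 0), no gene had an unadjusted p under 0.05 (6.98% and 6.04% of all probes), the t-test of the methods called none of the 7, and Egf differed by -0.31 and -0.26.

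In medulla Egf stood at 12.49, 12.82 and 12.93 in HLP and 10.95, 12.15 and 12.50 in HLP+Apocynin, with ranges that met only at 12.49 to 12.50. The difference was -0.74 ± 0.19, or 1.66-fold (adjusted p = 0.0235), and it was -0.52 without replicate 3 (adjusted p = 0.0323) and passed no longer without HLP medulla 1 (adjusted p = 0.0536). Casr was the second gene of 7 that passed, lower by 0.09 ± 0.021 near background (adjusted p = 0.0173), beside 8.25% of probes, and all 7 genes had a negative difference, median -0.36. Kcnj1 was at 11.35, 11.81 and 12.13 in HLP and 10.56, 10.98 and 11.44 in HLP+Apocynin (-0.77 ± 0.27, adjusted p = 0.0723), and passed without HLP+Apocynin medulla 4 (adjusted p = 0.0445). Egf did not pass with median scaling (adjusted p = 0.0663), with the log2 values of the authors (-0.58, adjusted p = 0.253) or with the t-test of the methods (adjusted p = 0.112). Neither Egf (-0.37, adjusted p = 0.357) nor Casr (adjusted p = 0.112) passed with the alternative sample names.

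All 12 arrays with apocynin were then set against the 12 without, a comparison that the other sample names left with the same differences. In medulla 4 of the 7 genes fell, beside 23.4% of 11972 probes called and 13.2% called lower. Egf fell by 0.54 ± 0.14 (adjusted p = 0.007), from 12.45 to 12.93 without apocynin to 10.95 to 12.60 with it. Kcnj1 fell by 0.58 ± 0.19 (adjusted p = 0.0289), Bsnd by 0.41 ± 0.13 (adjusted p = 0.0269) and Casr by 0.07 ± 0.015 (adjusted p = 0.00317), the last by 0.30 without background correction. Bsnd was at 7.90, 8.24 and 8.39 in Control and 7.79, 7.82 and 8.46 in HLP, against 7.22, 7.57 and 8.44 in Apocynin and 7.17, 7.57 and 8.10 in HLP+Apocynin, so that groups overlapped. Slc12a3 (-0.09), Cldn16 (-0.11) and Calb1 (0.64 ± 0.60, adjusted p = 0.466) did not pass. With the log2 values of the authors Egf did not pass (-0.37, adjusted p = 0.225), and over the arrays with the same group in both tables neither Egf (-0.54, adjusted p = 0.0622) nor Kcnj1 (-0.56, adjusted p = 0.21) did.

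The falls of Kcnj1 and Bsnd in medulla were near the threshold. Kcnj1 had an adjusted p of up to 0.0553 when Control medulla 2, 3 or 5, HLP medulla 1 or HLP+Apocynin medulla 1 was left out, with differences from -0.67 to -0.51, and Bsnd of up to 0.0509 without HLP medulla 1 or Apocynin medulla 3, with -0.48 to -0.36. Without the arrays nearer cortex all 3 well measured genes passed, Egf with -0.56, Kcnj1 with -0.62 and Bsnd with -0.46. In the same comparison Ppp1r1a fell by 0.66 ± 0.22 (adjusted p = 0.0306), 1 of 12 other thick ascending limb genes, of which 11 had a negative difference, and Hsd11b2 fell by 0.41 ± 0.15 (adjusted p = 0.0461). Of the WNK-SPAK genes Sgk1 rose by 0.49 and Cul3 fell by 0.17.

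Markers of other cell types moved in the same medulla comparison. Of 6 intercalated cell genes, cells that also hold barttin, 2 fell past the test, Foxi1 by 0.35 and Slc4a1 by 0.47. Among the 6 genes 4 differences were negative and 2 positive, with a median of -0.26. Their score correlated with Bsnd over the 24 medulla arrays (r = 0.65, permutation p = 0.00204, adjusted p = 0.0142, rho = 0.55, and 0.52 without the 2 farthest arrays), with r of 0.01 among the 12 arrays without apocynin and 0.93 among the 12 with it, and 0.50 without the arrays nearer cortex (adjusted p = 0.136). Of 3 endothelial genes tested 2 fell, Vwf by 0.88 and Tek by 0.18, and their score correlated with Egf (r = 0.62, permutation p = 0.00282, adjusted p = 0.0183, rho = 0.62, 0.46 without the 2 farthest arrays, 0.42 without and 0.77 with apocynin). Of 5 fibroblast and smooth muscle genes 2 rose, Tagln by 1.24 and Lum by 0.41. Of 6 tubular injury genes 3 rose, Clu by 1.30, Timp1 by 1.26 and Krt8 by 0.44, and none of 3 macrophage genes passed, with a median of 0.55. None of 7 principal cell genes passed either, with 5 lower, 2 higher and a median of -0.14. The part of these cell types in the falls of Egf, Kcnj1, Bsnd and Casr was not tested.

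In cortex Egf was the 1 gene of 7 that passed with apocynin against without, beside 26.8% of 12268 probes called and 13.7% called lower. It fell by 0.34 ± 0.12, or 1.26-fold (adjusted p = 0.038), from 12.26 to 12.81 to between 11.21 and 12.55. The call was lost, with adjusted p up to 0.0681 and differences from -0.39 to -0.26, when any 1 of 11 arrays was left out: Control cortex 2, 4 or 5, HLP cortex 1, 2, 3 or 5, Apocynin cortex 2 or 3, or HLP+Apocynin cortex 3 or 4. It was also lost with the alternative sample names (adjusted p = 0.0589), with the log2 values of the authors (adjusted p = 0.0898) and with the t-test of the methods (adjusted p = 0.0682). Umod (-0.18), Ppp1r1a (-0.27) and Irx3 (-0.12) fell too, 3 of 12, while Vdr rose (0.09) and Slc8a1 fell (-0.03), 2 of 11 distal tubule genes.

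**Figure D4:**
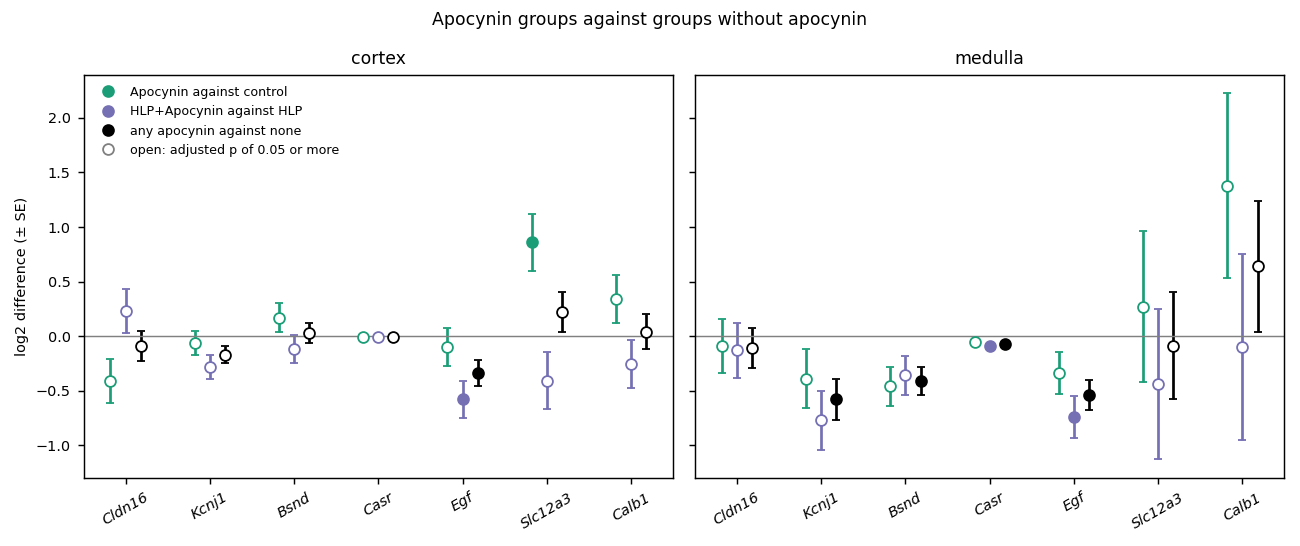
Log2 difference (y axes, ± SE) of each gene for Apocynin against control, HLP+Apocynin against HLP and all apocynin arrays against all others in cortex and medulla, with filled circles where the adjusted p was under 0.05. Egf lies below 0 in all comparisons shown, Slc12a3 in cortex has opposite signs for Apocynin against control (0.86) and HLP+Apocynin against HLP (-0.41), and the SE of Calb1 and Slc12a3 in medulla is wide.

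The difference between the tissues in the apocynin comparison was tested itself, and passed for 2 of 7 genes beside 23.8% of 12616 probes. For Bsnd it was 0.44 ± 0.16 (adjusted p = 0.0444), from 0.03 in cortex to -0.41 in medulla, and for Casr 0.06 ± 0.019 (adjusted p = 0.0287). For Egf it was 0.20 ± 0.19 (adjusted p = 0.484). Bsnd was lost, with adjusted p up to 0.0757, when any 1 of 24 of the 48 arrays was left out: Control cortex 3 or 4, HLP cortex 2, 4 or 6, Apocynin cortex 2, 4 or 5, HLP+Apocynin cortex 5 or 6, Control medulla 2, 3, 4 or 6, HLP medulla 1 or 5, Apocynin medulla 1, 3, 5 or 6, or HLP+Apocynin medulla 1, 2, 3 or 6. With median scaling its adjusted p was 0.142. Hsd11b2 (0.55), Vdr (0.14) and Wnk4 (0.40) also passed this test.

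Whether HLP and apocynin together differed from their separate effects was tested by their interaction, which no probe passed with limma in either tissue (percent called 0). In cortex 2 of the 7 genes had an unadjusted p under 0.05, Slc12a3 (-1.27 ± 0.37, adjusted p = 0.193) and Cldn16 (0.64 ± 0.29, adjusted p = 0.274), and in medulla none (16.8% and 2.14% of all probes). Slc12a3 was higher than in control by 0.93 in HLP and 0.86 in Apocynin and by 0.51 in HLP+Apocynin, whose means were 11.11, 11.04 and 10.70 against 10.19. The interaction of Slc12a3 was 0.24 with the alternative sample names. All HLP groups against all others gave no call in either tissue (percent called 0 with limma), 1 gene with an unadjusted p under 0.05 in cortex, Cldn16 (-0.39 ± 0.14, adjusted p = 0.281), and none in medulla (12.3% and 10.5% of all probes), and the t-test of the methods called none of the 7.

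The 4 diet groups were also put in order of their mean for each gene and tissue, and none of the 42 pairs of neighbours passed (exact permutation test, two-sided, 6 against 6, lowest adjusted p = 0.546). Ordering by the same means picks the closest groups, and 6 against 6 arrays bound the smallest exact p. The lack of calls therefore does not show that the groups were alike. The lowest unadjusted p was that of Egf in medulla between Control and Apocynin (12.62 against 12.28, exact p = 0.013). In medulla the order of Egf was HLP, Control, Apocynin and HLP+Apocynin, with means of 12.76, 12.62, 12.28 and 12.03, and in cortex it was the same, with 12.62, 12.45, 12.35 and 12.04. Kcnj1 had this order too, with 11.77, 11.55, 11.17 and 11 in medulla and 10.84, 10.80, 10.74 and 10.56 in cortex.

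Markers of tubular injury and of macrophages stood high in several of the arrays with the lowest Egf. The mean of 6 injury genes, relative to the tissue mean, was 2.20 in HLP+Apocynin cortex 3 and 2.23 in HLP+Apocynin medulla 3, where Egf was at 11.21 and 10.95, and 1.55 in Apocynin medulla 3, where Egf was at 11.58. No array without apocynin exceeded 0.13. Macrophage markers were at 1.56, 2.23 and 1.29 in the same 3 arrays and at 0.21 or less in all arrays without apocynin. In HLP+Apocynin cortex 4, where Egf was at 11.50, the injury score was 0.87 and the macrophage score 0.32. Over the 24 medulla arrays Egf correlated with the injury score at r = -0.83 (permutation p = 0.00181, adjusted p = 0.0132) and rho = -0.37, and r was -0.48 without the 2 farthest arrays, 0.32 among the 12 arrays without apocynin and -0.95 among the 12 with it.

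In cortex the values were r = -0.68 (permutation p = 0.0076, adjusted p = 0.0432), rho = -0.50, -0.40 without the 2 farthest arrays, 0.01 without apocynin and -0.78 with it. With the macrophage score Egf had r = -0.87 in medulla (permutation p = 0.00315, adjusted p = 0.0198, rho = -0.43) and -0.72 in cortex (permutation p = 0.00838, adjusted p = 0.0462, rho = -0.49), and -0.52 and -0.36 without the 2 farthest arrays. With median scaling none of these 4 relations passed, with r of -0.56 (adjusted p = 0.0999, rho = -0.04) and -0.65 (adjusted p = 0.0907, rho = -0.37) for injury in medulla and cortex and -0.69 (adjusted p = 0.0781, rho = -0.12) and -0.67 (adjusted p = 0.106, rho = -0.33) for macrophages. The fibroblast and smooth muscle score had r = -0.85 with Egf in medulla (permutation p = 0.00968, adjusted p = 0.0476, rho = -0.45). This r was -0.39 without the 2 farthest arrays, 0.39 without apocynin and -0.96 with it. That score did not pass in medulla with median scaling (adjusted p = 0.0802) or in cortex (r = -0.54, adjusted p = 0.197). The relation of Egf to these markers thus rested on a few arrays of the apocynin groups and on the scaling. The falls of Egf with apocynin were -0.43 in medulla (adjusted p = 0.00266) and -0.26 in cortex (adjusted p = 0.0518) without HLP+Apocynin replicate 3 of both tissues. The part of injury, of macrophages and of fibroblasts and smooth muscle in the level of Egf was not tested.

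**Figure D5:**
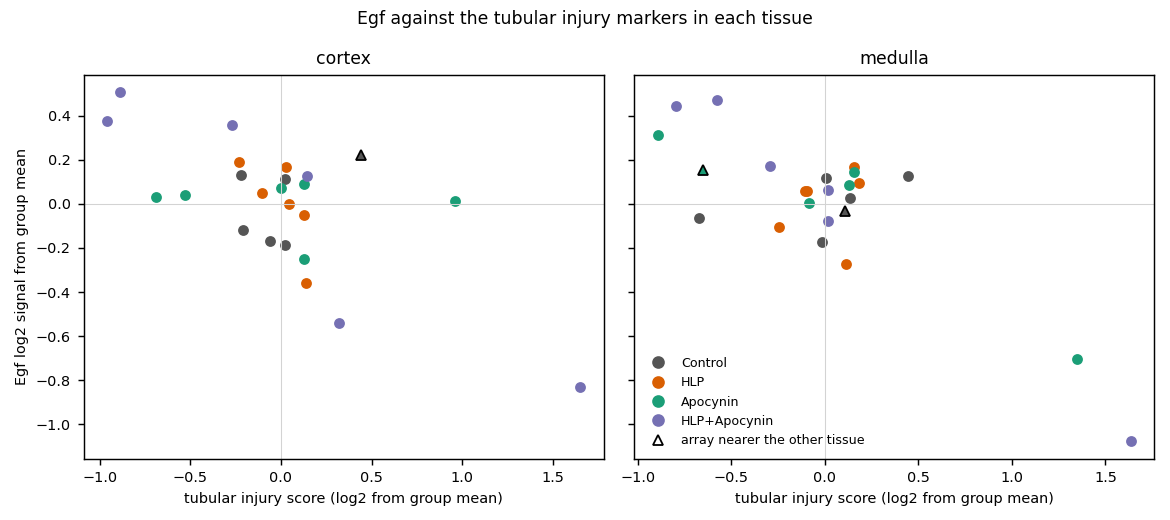
Deviation of Egf from its group mean (y axis, log2) against the deviation of the mean of 6 tubular injury markers (x axes, log2) in 24 cortex and 24 medulla arrays, coloured by diet group. The arrays at the far right in each panel belong to the apocynin groups and include the lowest Egf values, and Egf of the arrays without apocynin showed no fall along the score (r = 0.01 and 0.32).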

How the data were processed

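Cortex and medulla RNA was measured on 48 one-colour arrays, 6 per tissue and diet group, grouped by their labels. The deposited raw table holds intensity and a detection p-value per probe, exported by the authors from GenomeStudio without normalization as far as the values show, and the deposited log2 table holds values that the authors normalized between arrays. Raw intensities were background corrected with nec (offset 16) and quantile normalized over the 48 arrays in limma 3.58.1 (R 4.3.3, statmod 1.5.0). Probes with a detection p under 0.05 in at least 6 arrays were tested with lmFit and eBayes (trend) on log2 signals, over 24 arrays per tissue (12268 probes in cortex, 11972 in medulla) or all 48 (12616 probes), with Benjamini-Hochberg adjustment over all probes and a threshold of 0.05. The number of arrays limits the precision. On simulated data 99 of 100 genes changed by 2-fold and 82 of 100 changed by 1.5-fold were called in cortex with 8 false calls, and 92 and 78 in medulla with 10. The changed genes were drawn from all tested probes, whose median spread within groups was 0.1 in cortex and 0.11 in medulla (SD, log2). These counts do not carry over to genes of wider spread, such as Slc12a3 (0.48 in cortex, 1.3 in medulla) and Calb1 (1.6 in medulla).

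The 8 genes and the other gene lists were chosen with earlier results of these data known. Every probe of the 8 genes is given, and of each other list at most the 4 genes of smallest p past the test in a comparison, plus a gene that was the only one of its list called in its direction, named after its value was seen. A marker score is the mean over a list's probes of the log2 signal minus the probe's tissue mean. Correlations used Python 3.11.15 and scipy 1.17.1. Alternatives covered background correction, scaling, filter, samples, sample names, the log2 table, the t-test of the methods, a replicate block and leaving out arrays.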

Additional observations from a re-analysis of the deposited data

Results flagged for a closer look

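Of 56 combinations of gene and group, 10 had 1 array far from the other 5, where chance gives about 2.8 (1 in 20) for independent combinations. The combinations share arrays, and some arrays below count for several genes, so that the 10 cannot be read as an excess over 2.8. Control cortex 4, which stood nearer medulla, was apart for Slc12a3 (8.84, nearest 10.16), Calb1 (11.19, nearest 12.74) and Kcnj1 (11.43, nearest 10.75). Apocynin medulla 4, which stood nearer cortex, was apart for Cldn16 (8.42, nearest 9.73) and Calb1 (13.27, nearest 11.28). HLP+Apocynin medulla 3, the medulla array with the highest injury score, was apart for Egf (10.95, nearest 11.95) and Cldn16 (10.03, nearest 9.74). Egf was also apart in Apocynin medulla 3 (11.58, nearest 12.29) and Apocynin cortex 2 (12.10, nearest 12.36), and Bsnd in HLP+Apocynin cortex 5 (8.69, nearest 8.15).

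The difference between arrays with and without apocynin was unlike in cortex and medulla for Bsnd (0.44, adjusted p = 0.0444 with limma) and Casr (0.06, adjusted p = 0.0287). These were 2 of 7 genes, beside 23.8% of 12616 probes in the same test. Bsnd lost its call with median scaling and when any of 24 single arrays was left out (adjusted p up to 0.0757), and Casr stood near background.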

How the results depend on the processing

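The medians of the 7 genes kept their direction under most alternatives, and without single arrays they ran, for example, from -0.33 to -0.04 for HLP+Apocynin against control in medulla, from 0 to 0.36 for its effect between the tissues and from -0.02 to 0.03 for Apocynin against control in cortex. With the alternative sample names, those of the log2 table, the median changed from 0.11 to -0.08 for HLP against control in cortex, from -0.26 to 0.01 for HLP+Apocynin against HLP in cortex, from -0.18 to 0.02 for HLP+Apocynin against Apocynin in cortex and from -0.16 to 0.28 in medulla, and from -0.29 to 0.11 and from -0.38 to 0.16 for the interaction in cortex and medulla. With the arrays of the same group in both tables it was -0.37 for HLP+Apocynin against control in medulla (main value -0.04) and -0.05 for the interaction in medulla. With the log2 values of the authors it was -0.18 for HLP+Apocynin against control in cortex (main value -0.03), and for cortex against medulla -0.45 over the diet groups, -0.51 in Control, -0.39 in HLP, -0.42 in Apocynin and -0.42 in HLP+Apocynin, where the main values were -0.02, -0.02, -0.09, 0.06 and 0.01. In Control it was -0.49 with median scaling and -0.48 with quantile normalization within each tissue.

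Single genes reversed with the alternative sample names for HLP against control in cortex (Slc12a3 -0.23, Calb1 -0.27), for the interaction of Slc12a3 in cortex (0.24) and for the HLP effect of Cldn16 between the tissues (0.10). Kcnj1 was 0.02 for HLP+Apocynin against control in cortex over arrays of the same group in both tables, and Bsnd was -0.08 between the tissues both with quantile normalization within each tissue and with the log2 values of the authors. The cause was not tested. In cortex 1 gene pair passed without the arrays nearer the other tissue (3 with them), with r of -0.37 for Slc12a3 and Cldn16 (-0.51 with median scaling) and 0.47 for Bsnd and Calb1. Over all probes, 302 were called for HLP against control in cortex, 108 with median scaling, 2 with the alternative sample names and 0 without the arrays nearer the other tissue.

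With a replicate block, Slc12a3 for HLP against control in cortex (adjusted p = 0.0355) and Egf for HLP+Apocynin against control in medulla (adjusted p = 0.0282) passed, and no gene lost a call. Samples with the same number in different diet groups deviated together with a median r of 0.02 in cortex (-0.19 to 0.56) and 0.10 in medulla (-0.62 to 0.85). Whether they share more than a number was not tested. Cortex and medulla arrays of the same group and number had a median r of 0.37, over 0.1 in 20 of 24. Other cortex and medulla pairs had a median r of -0.01, over 0.1 in 118 of 552. Casr stood too close to background for its small differences to be sized.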
